A study of Mus musculus with 17 samples.

Results

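The 9 genes described here encode components and soluble regulators of the complement system: C1qa, C1ra and C1s1 of the C1 complex, C4b, C2, C3 and Cfb of the C3 convertases, and the regulators Cfi and Serping1. They were taken as a fixed list of symbols, which was chosen with earlier results of these data known. The symbols were matched to the Ensembl identifiers of the count tables. All 9 were found in each of the 17 tables, among 53313 gene identifiers common to them. The study sequenced poly(A) RNA of primary tubular epithelial cells (PTEC) and of whole kidneys from wild-type mice. Their strain is C57BL/6JRj in the paper's methods and C57BL/6Rj in the sample labels. Non-senescent PTEC (ns PTEC, n = 4) had no irradiation and were labelled day 6, and senescent PTEC (sen PTEC, n = 4) were labelled day 16 and had received 10 Gy of γ-irradiation, and the effect of the irradiation cannot be told apart from that of the longer culture. Kidneys came from male mice of 3, 12 and 24 months (n = 3 for each age), of which a piece of the right kidney was frozen for RNA, so that every cell type of the organ contributed. The PTEC had been grown out of collagenase-digested tubular fragments, and nothing says that the cultures came from separate animals, so the p-values of the PTEC comparison measure the spread between cultures, which may be technical.

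Complement is a cascade of plasma proteins that marks surfaces for removal and attracts leukocytes. In the classical pathway, C1q binds antibody or other ligands and activates the proteases C1r and C1s, which cleave C4 and C2 into the classical C3 convertase. In the alternative pathway, factor B (Cfb) joins cleaved C3 in a second convertase that amplifies the cascade. The C1 inhibitor (Serping1) blocks C1r and C1s, and factor I (Cfi) degrades the active fragments of C3 and C4. The liver makes most of the circulating proteins, macrophages make much of the C1q, and tubular epithelium is a known local source of C3.

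Of the members, 4 lie on chromosome 17 of GRCm38 and all of these on the minus strand. C4b lies at chr17:34728380-34743882, Cfb at chr17:34856374-34862518 and C2 at chr17:34862604-34898265, all in the MHC region, and C3 lies apart from them at chr17:57203970-57228136. C1ra (chr6:124512405-124523443, plus strand) and C1s1 (chr6:124530345-124542359, minus strand) are neighbours whose ends face each other. C1qa lies at chr4:136895917-136898803 (minus strand), Cfi at chr3:129835884-129875332 (plus strand) and Serping1 at chr2:84765387-84775444 (minus strand). Some of these genes share sequence with others, which limits what a count can be assigned to. Of all 76-base windows of the longest transcript, 81.2% in Cfb and 55.5% in C2 also occur in Gm20547, a readthrough gene of the pair that had 0 counts in every library. Gm20547 lies on their strand and overlaps 79.5% of the exon bases of Cfb and 42.8% of those of C2. How reads in this overlap were counted is not given. If they were left out, the levels, ranks and shares of Cfb and C2 below are too low beside other members. The share was 42.1% in C1ra (mainly with C1rb), 23.2% in C4b (all with C4a) and 14.4% in C1s1 (all with C1s2), and it was 0 in C1qa, C3, Cfi and Serping1. In C1s1, 18.4% of the exon bases lie opposite the antisense gene Gm16567, which had at most 4 counts in a library, and in C2 4.16% lie opposite Zbtb12, with up to 520 counts. Whether reads were counted by strand is not given in the sources used here.

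RefSeq promoters (GRCm38.p6, 250 bases before to 50 bases after the gene start) were at hand for 3 of the 9 members. They are shown because C1ra and C1s1 rose in senescent PTEC from facing genes, and because C3 was the most abundant member in PTEC. Capitals mark the letters of a searched motif on either strand.
C1ra, chr6:124512371-124512670, plus strand: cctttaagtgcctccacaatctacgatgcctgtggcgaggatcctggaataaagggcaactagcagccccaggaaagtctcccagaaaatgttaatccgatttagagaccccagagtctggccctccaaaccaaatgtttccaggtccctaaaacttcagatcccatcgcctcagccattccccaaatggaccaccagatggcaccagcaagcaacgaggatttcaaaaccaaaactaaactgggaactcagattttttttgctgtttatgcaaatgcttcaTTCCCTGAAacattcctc
C1s1, chr6:124542310-124542609, minus strand: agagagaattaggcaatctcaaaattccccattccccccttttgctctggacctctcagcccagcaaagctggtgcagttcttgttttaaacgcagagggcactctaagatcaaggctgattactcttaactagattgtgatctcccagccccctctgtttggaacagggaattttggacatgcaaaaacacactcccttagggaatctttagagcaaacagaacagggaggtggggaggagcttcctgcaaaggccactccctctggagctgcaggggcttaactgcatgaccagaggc
C3, chr17:57228087-57228386, minus strand: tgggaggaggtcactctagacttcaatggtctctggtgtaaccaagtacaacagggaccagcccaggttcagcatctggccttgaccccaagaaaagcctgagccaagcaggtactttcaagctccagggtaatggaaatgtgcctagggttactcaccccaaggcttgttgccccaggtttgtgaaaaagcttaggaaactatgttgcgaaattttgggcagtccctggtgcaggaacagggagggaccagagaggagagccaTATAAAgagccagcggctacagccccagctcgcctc
The C1s1 and C3 windows are built on the gene starts given above. The C1ra window is built on a RefSeq start at 124512621, 216 bases inside the gene as placed above, so that most of it lies within that gene model. In C1ra the capitals mark TTCNNNGAA, the letters of a STAT (GAS) element, at bases 283 to 291 of the window, a pattern present in 8.3% of the 32851 promoters of the same length. In C3 they mark TATAAA, the letters of a TATA box, at bases 265 to 270, which is 15 to 20 bases past the start, present in 13.6% of these promoters. The letters of an interferon-stimulated response element (GAAA, 2 bases of any kind and GAAA again, in 3.44% of promoters) and of an NF-kB site (in 8.46%) were in none of the 3 windows, and the C1s1 window held none of the 4 motifs. A match of letters describes the sequence and is no evidence of binding.

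Levels are given as CPM, the count of a gene relative to the size of its library after TMM scaling over the 17 libraries, and as mean ± SD. Between 26963442 and 35409144 reads per library were counted on genes in PTEC and between 37311247 and 66894790 in kidneys. Epithelial markers were present in PTEC (summed over 7 genes, 2485 to 3434 CPM in ns PTEC and 1154 to 2521 CPM in sen PTEC, against 1141 to 2316 CPM in kidneys), but 12 proximal tubule markers summed to only 203 to 821 CPM against 50970 to 67139 CPM in kidneys. The tables follow 3 gene sets, for PTEC, for kidneys of 3 months and for kidneys of 12 and 24 months. In a comparison with kidneys of 3 months, age and the gene set therefore cannot be told apart.

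In PTEC, the complement transcripts were mostly C3. C3 made up 93.5% (range 89.9% to 95.7%) of the summed CPM of the 9 members in ns PTEC and 78.6% (68% to 88.3%) in sen PTEC. In kidneys it made up 11.2%, 8.57% and 19.4% at 3, 12 and 24 months, and Cfb and Serping1 each had a higher mean than C3 at 3 and 12 months. Per kilobase of exon, C3 was the highest member in ns PTEC with 59.3 CPM per kb, followed by C1qa with 4.92 and Cfi with 1.93. In sen PTEC the order was C3 (42.4 CPM per kb), C1s1 (4.75) and C1qa (3.94). In kidneys of 3 months it was Serping1 (20.1 CPM per kb), Cfb (17.2) and C1qa (16.6), with C4b lowest at 1.27. In kidneys of 24 months C1qa (31.5 CPM per kb), Cfb (29.7) and Serping1 (29.2) led again, and C3 was at 14.3. The summed level of the members was 324 CPM in ns PTEC (192 to 582), 261 CPM in sen PTEC (118 to 472), 179 CPM at 3 months (154 to 201), 251 CPM at 12 months (225 to 266) and 380 CPM at 24 months (334 to 425).

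**Figure D1:**
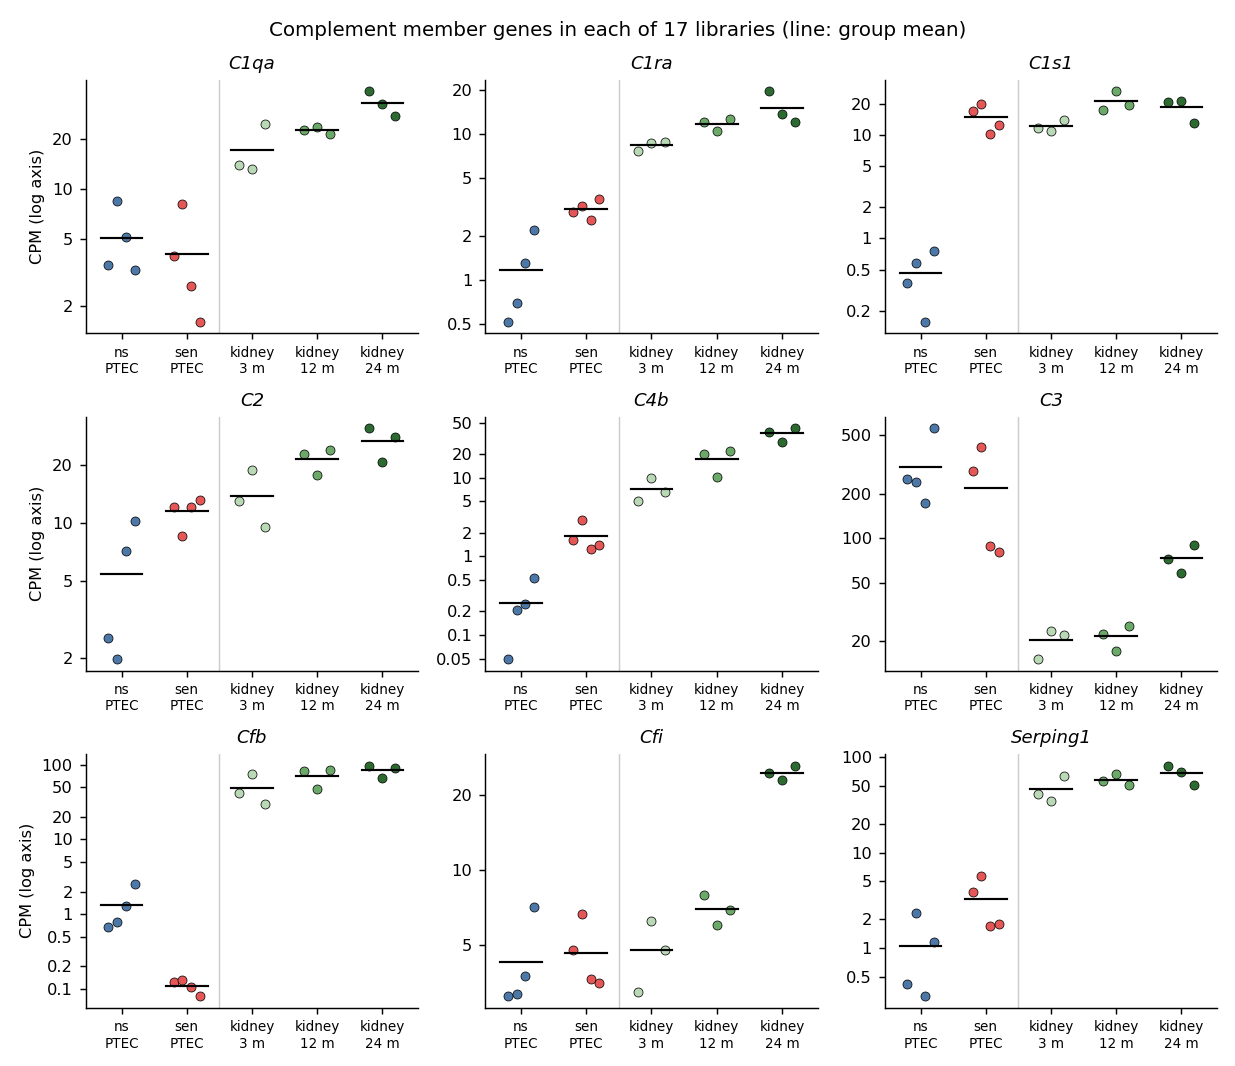
CPM (log axis) of each member in every library, by group (points: cultures or kidneys; line: group mean). C1s1 and C4b rose and Cfb fell in sen PTEC with no overlap between the groups, and the 3 kidneys of 24 months were above all younger kidneys for C3, C4b and Cfi.

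Senescent PTEC were compared with non-senescent PTEC with edgeR's quasi-likelihood test over 15434 genes, where a gene was called if its adjusted p was below 0.05 and its log2 fold change beyond 0.5 in either direction. Of the 9 members, all tested, C1s1, C4b and C1ra were up-regulated and Cfb was down-regulated. Over all genes tested, 20.1% were called up and 19.7% down in this comparison, against 3 and 1 of 9 members. The groups did not overlap in these 4 members, and over all genes they lay apart in 21.3% (sen higher) and 20.6% (sen lower). The members' median log2 fold change was 1.10, against -0.00 over all genes. The replicate numbers were taken to pair the cultures because same-numbered cultures deviated together, although the labels state no pairing. With the number as a block Serping1 and C2 were up-regulated too, which gives 5 up-regulated members. In that fit 23.2% of all genes were called up and 21.3% down.

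C1s1, which encodes the protease that cleaves C4 and C2, had the largest log2 fold change of the 9 members. It had 0.371, 0.572, 0.156 and 0.759 CPM in the 4 ns cultures and 17.1, 19.8, 10.1 and 12.5 CPM in the sen cultures. Each sen culture was thus at least 10.1 CPM and each ns culture under 1 CPM. C1s1 changed by 5.01 on the log2 scale (SE 0.423, adjusted p = 2.51e-05), a 32.2-fold difference, and the ratio within same-numbered pairs ran from 16.5 to 64.8. C1ra, the protease that activates C1s, had 0.519, 0.702, 1.31 and 2.19 CPM in ns PTEC and 2.91, 3.23, 2.56 and 3.61 CPM in sen PTEC. The groups did not overlap, but the highest ns culture (2.19 CPM) came near the lowest sen culture (2.56 CPM). Its log2 fold change was 1.41 (SE 0.415, adjusted p = 0.0206), and the call was lost without sen PTEC replicate 4 (1.32, adjusted p = 0.0538). C1rb, the copy with which C1ra shares sequence, had no count in ns PTEC and at most 0.0854 CPM in sen PTEC. C1s2, the copy of C1s1, stayed between 0.0988 and 0.321 CPM in all PTEC.

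C1qa, a chain of the C1q recognition molecule, was not called. It had 3.51, 8.53, 5.17 and 3.27 CPM in ns PTEC and 3.97, 8.2, 2.63 and 1.6 CPM in sen PTEC, and the groups overlapped (log2 fold change -0.30, SE 0.493, adjusted p = 0.655). Replicate 2 was highest in both groups. The other C1q chains, C1qb and C1qc, had log2 fold changes of -0.19 and 0.02 and were not called either. The same replicates were also highest for the summed level of 12 macrophage markers, with 119 CPM in ns replicate 2 (others 69.5 to 86.3) and 205 CPM in sen replicate 2 (others 54.3 to 92.4). All 12 of these markers had counts in both PTEC groups, and of the 11 tested 0 were up-regulated and 1 was down-regulated. The part of such cells in the C1q level of PTEC was not tested.

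**Figure D2:**
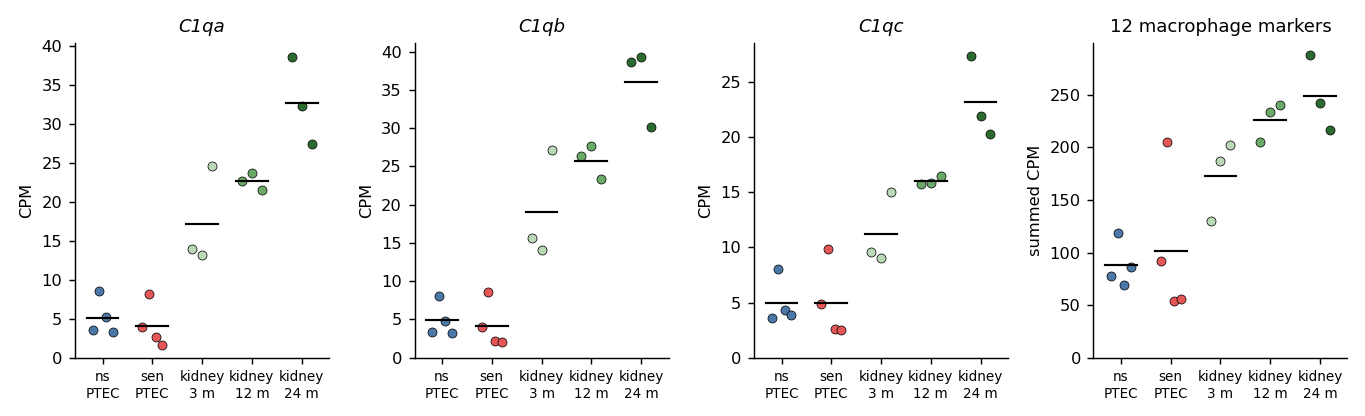
CPM of the 3 C1q chain genes and the summed CPM of 12 macrophage markers in every library (linear axes, points: libraries, line: group mean). Replicate 2 was highest in both PTEC groups in each panel, and kidneys of 24 months were above all younger kidneys for the C1q genes.

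Among the convertase genes, C4b, the precursor of a convertase subunit, rose from a low level. It had 0.0494, 0.208, 0.249 and 0.525 CPM in ns PTEC and 1.62, 2.94, 1.24 and 1.39 CPM in sen PTEC. The groups lay apart although the ns values rest on 2 to 18 counts. It rose by 2.83 on the log2 scale (SE 0.55, adjusted p = 0.00274), and the ratio was above 1 in all 4 pairs, from 2.65 to 32.7. C4a, its copy, was between 0.297 and 0.642 CPM in all PTEC and was not called (0.27, adjusted p = 0.514).

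Cfb, the protease precursor of the alternative convertase, moved the other way. It had 0.667, 0.78, 1.28 and 2.51 CPM in ns PTEC and 0.126, 0.13, 0.107 and 0.0802 CPM in sen PTEC. All sen cultures were below all ns cultures, and the sen values rest on only 3 to 5 counts. Its log2 fold change was -3.50 (SE 0.508, adjusted p = 0.00056), and it was lower in 4 of 4 pairs. C2, the neighbouring gene and its counterpart in the classical convertase, had 2.55, 1.98, 7.16 and 10.3 CPM in ns PTEC and 12.2, 8.64, 12.2 and 13.3 CPM in sen PTEC. The groups overlapped and C2 was not called (1.10, SE 0.469, adjusted p = 0.0823), but it was higher in all 4 pairs and was called with the replicate block (1.38, adjusted p = 0.0105). It was also called without ns replicate 4 (1.60, adjusted p = 0.0186).

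C3, on which all pathways converge, had 251, 241, 173 and 555 CPM in ns PTEC and 285, 417, 88.9 and 80.4 CPM in sen PTEC. Replicates 3 and 4 of sen PTEC were below all ns cultures and the other sen cultures within the ns range, and the ratio within pairs was 1.13, 1.73, 0.515 and 0.145. Its fitted log2 fold change was -0.46 (SE 0.553, adjusted p = 0.53; with the replicate block -0.62, adjusted p = 0.395), so that a difference could not be told from the spread between cultures.

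Of the regulators, Serping1 had 0.42, 2.31, 0.311 and 1.14 CPM in ns PTEC and 3.89, 5.75, 1.71 and 1.79 CPM in sen PTEC. It was higher in 4 of 4 pairs, with overlapping groups. Its fitted log2 fold change was 1.66 (SE 0.638, adjusted p = 0.0583), and 1.84 with the replicate block (adjusted p = 0.0055). It was also called by DESeq2 (adjusted p = 0.0253) and without ns replicate 2 (2.42, adjusted p = 0.013) or sen replicate 3 (1.90, adjusted p = 0.0416). Cfi, the protease that inactivates C3b and C4b, had 3.11, 3.17, 3.74 and 7.12 CPM in ns PTEC and 4.78, 6.64, 3.63 and 3.53 CPM in sen PTEC. Values of both groups intermingled, and the log2 fold change was 0.14 (SE 0.328, adjusted p = 0.756).

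Markers of other cell types were also called. The summed level of 9 fibroblast and pericyte markers was 14.1 to 85.2 CPM in ns PTEC and 102 to 373 CPM in sen PTEC, and 5 of the 7 tested were up-regulated, while Dpt had no count in sen PTEC. Of the proximal tubule markers 4 of 7 tested were down-regulated (239 to 821 CPM in ns PTEC and 203 to 316 CPM in sen PTEC), and of endothelial markers 2 of 7 (77.1 to 208 and 56 to 189 CPM), with 0 up-regulated in both lists, where 20.1% of all genes were called up and 19.7% down. The endothelial count is near that share. Of the hepatocyte markers 1 of 2 tested was down-regulated, with sums of 1.46 to 11.6 CPM in ns PTEC and 0.748 to 1.39 CPM in sen PTEC, without overlap. Of the 7 epithelial markers, whose sums are given above and overlapped little between the groups, 1 was up-regulated and 1 down-regulated. Fibroblasts also express C1r, C1s, C4 and Serping1, and the part of these cell types in the changes of C1s1, C1ra, C4b and Cfb was not tested. Fewer cells of a type and less RNA per cell cannot be told apart in these bulk libraries, also not in the kidneys.

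In kidneys, Cfi, C3 and C4b rose between 3 and 24 months. Cfi and C3 were also called between 12 and 24 months, but C3 lost that call without any one of the 6 kidneys and Cfi in 5 of these 6 fits. Kidneys were tested in one fit of 9 libraries over 17067 genes. Between 24 and 3 months Cfi, C3 and C4b were up-regulated and 0 members were down-regulated, where 1.89% of all genes were called up and 0.451% down. All 9 members had positive log2 fold changes, from 0.54 for Serping1 to 2.37 for Cfi, with a median of 0.93 against 0.00 over all genes. The groups did not overlap in 6 members (C1qa, C1ra, C2, C4b, C3 and Cfi), which 12% of all genes showed in this direction and 9.84% in the other. With DESeq2, the tool the study used, C1qa, C1ra and C2 were called as well, which gives 6 up-regulated members where DESeq2 called 2.42% of 30029 genes up and 1.03% down.

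Cfi and C4b had the largest log2 fold changes of the members between 24 and 3 months, and these did not differ beyond their SE. Cfi had 3.23, 6.24 and 4.79 CPM at 3 months, 7.96, 6.03 and 6.93 CPM at 12 months and 24.6, 23 and 26.3 CPM at 24 months. The kidneys of 24 months lay far above the other ages, which overlapped with each other. The log2 fold change between 24 and 3 months was 2.37 (SE 0.238, adjusted p = 0.00219), a 5.17-fold difference, and 1.84 between 24 and 12 months (SE 0.232, adjusted p = 0.0181, lost in 5 of 6 fits that leave out a kidney). Between 12 and 3 months it was 0.53 (SE 0.23, adjusted p = 0.29).

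C3 had a similar course. It had 15.2, 23.7 and 22.1 CPM at 3 months, 22.3, 17.3 and 25.5 CPM at 12 months and 72, 58.2 and 90 CPM at 24 months. The younger ages overlapped, and all kidneys of 24 months were above them. Its log2 fold change was 1.86 between 24 and 3 months (SE 0.244, adjusted p = 0.00821), 1.78 between 24 and 12 months (SE 0.243, adjusted p = 0.0187, lost in 6 of 6 such fits) and 0.08 between 12 and 3 months (SE 0.237, adjusted p = 0.929). At 24 months C3 was at 73.4 ± 16 CPM (n = 3), below all ns cultures, and the highest of these kidneys (90 CPM) exceeded the 2 lowest sen cultures (88.9 and 80.4 CPM).

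C4b had higher levels at each older age. It had 5.13, 10 and 6.55 CPM at 3 months, 20.3, 10.1 and 21.9 CPM at 12 months and 38.7, 28.7 and 42.5 CPM at 24 months. No age overlapped with another, although 12-month-old replicate 2 was at the level of 3-month-old replicate 2. The log2 fold change was 2.34 between 24 and 3 months (SE 0.352, adjusted p = 0.0137), and this call was lost without 24-month replicate 1 (adjusted p = 0.0504) or 3 (0.0505), or without 3-month replicate 1 (0.0823) or 3 (0.054), with values between 2.15 and 2.30. The steps of 1.25 from 3 to 12 months (SE 0.342, adjusted p = 0.0971) and 1.09 from 12 to 24 months (SE 0.336, adjusted p = 0.166) were not called. C4a had 0.428 to 1.13 CPM at 3 months and 0.617 to 1.53 CPM at 24 months, and 1.36 to 3.52 CPM at 12 months.

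The C1 genes and C2 differed less between ages. C1qa had 13.9, 13.2 and 24.6 CPM at 3 months, 22.7, 23.7 and 21.5 CPM at 12 months and 38.6, 32.3 and 27.4 CPM at 24 months. The 24-month-old kidneys were above all others, with 3-month-old replicate 3 the highest of its age. Its log2 fold change between 24 and 3 months was 0.93 (SE 0.242, adjusted p = 0.0928), and 1.27 without that replicate (adjusted p = 0.0205). C1ra had 7.62, 8.7 and 8.78 CPM at 3 months, 12, 10.4 and 12.6 CPM at 12 months and 19.5, 13.6 and 12 CPM at 24 months, with 0.85 between 24 and 3 months (SE 0.198, adjusted p = 0.0662). C1s1, the member that rose most in sen PTEC, had 11.7, 10.8 and 13.9 CPM at 3 months, 17.3, 26.3 and 19.5 CPM at 12 months and 20.9, 21.4 and 13.1 CPM at 24 months. Its highest age was 12 months, and 24-month-old replicate 3 was within the range of 3 months (0.61, SE 0.231, adjusted p = 0.214). C2 had 13.1, 18.9 and 9.56 CPM at 3 months, 23, 17.8 and 24 CPM at 12 months and 31.1, 20.7 and 28 CPM at 24 months. Its log2 fold change of 0.94 (SE 0.268, adjusted p = 0.118) was called without 3-month replicate 2 (1.24, adjusted p = 0.0354).

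Cfb and Serping1, the most abundant members in young kidneys, were not called at any age. Cfb had 42.2, 74 and 29.7 CPM at 3 months and 96.9, 65.5 and 89.7 CPM at 24 months (0.79, SE 0.354, adjusted p = 0.278), and one kidney of 3 months exceeded the lowest of 24 months. Serping1 had 41.7, 35.2 and 63.2 CPM at 3 months and 82.3, 70.7 and 50.8 CPM at 24 months, again with overlap (0.54, SE 0.251, adjusted p = 0.289). Their means at 12 months, 70.3 ± 20.6 CPM for Cfb and 58.1 ± 8.07 CPM for Serping1 (n = 3), lay between the other ages and overlapped with both.

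Between 12 and 3 months 0 of the 9 members were called with edgeR, where 1.22% of all genes were called up and 1.36% down. C1ra, C1s1 and C4b were higher at 12 months without overlap, as 11.5% of all genes were, and 0 members were lower without overlap (8.81% of all genes). At an unadjusted p under 0.05 there were 5 (C1ra, C1s1, C2, C4b and Cfi), against 16.5% of all genes, and DESeq2 called 1, C4b (1.24, adjusted p = 0.0206), where it called 1.77% of 30029 genes up and 1.92% down. Between 24 and 12 months, within one gene set, Cfi and C3 were up-regulated, where 0.896% of all genes were called up and 0.434% down. The kidneys of 24 months were above those of 12 months without overlap for C1qa, C4b, C3 and Cfi (12.7% of all genes), and 0 members were lower without overlap (12.8%). Both calls were sensitive to the number of kidneys: without any one of the 6 kidneys of these ages C3 had adjusted p-values from 0.052 to 0.0956 with log2 fold changes from 1.60 to 1.93, and Cfi kept its call only without 24-month replicate 3 (adjusted p = 0.048; otherwise 0.0571 to 0.0956). Calls over all genes fell likewise in these fits, from 153 genes up to 55 without 24-month replicate 3 and to 0 to 4 in the other fits. Deviations of same-numbered kidneys of these ages correlated with r of 0.385, 0.558 and 0.174, but replicate 3 correlated better with another number, and the mice differ. With the number as a block in the fit of all 9 kidneys neither was called, with 1.77 for C3 (adjusted p = 0.0958) and 1.83 for Cfi (0.096), and 0 of all 17067 genes were called (1930 at an unadjusted p under 0.05). With the block in a fit of the 12- and 24-month-old kidneys alone, an alternative chosen after the data had been seen, 4 members were up-regulated: C3 (adjusted p = 5.79e-05), Cfi (8.92e-05), C4b (0.00134) and C1qa (0.017). This fit called 7.77% of 16686 genes up and 5.41% down.

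**Figure D3:**
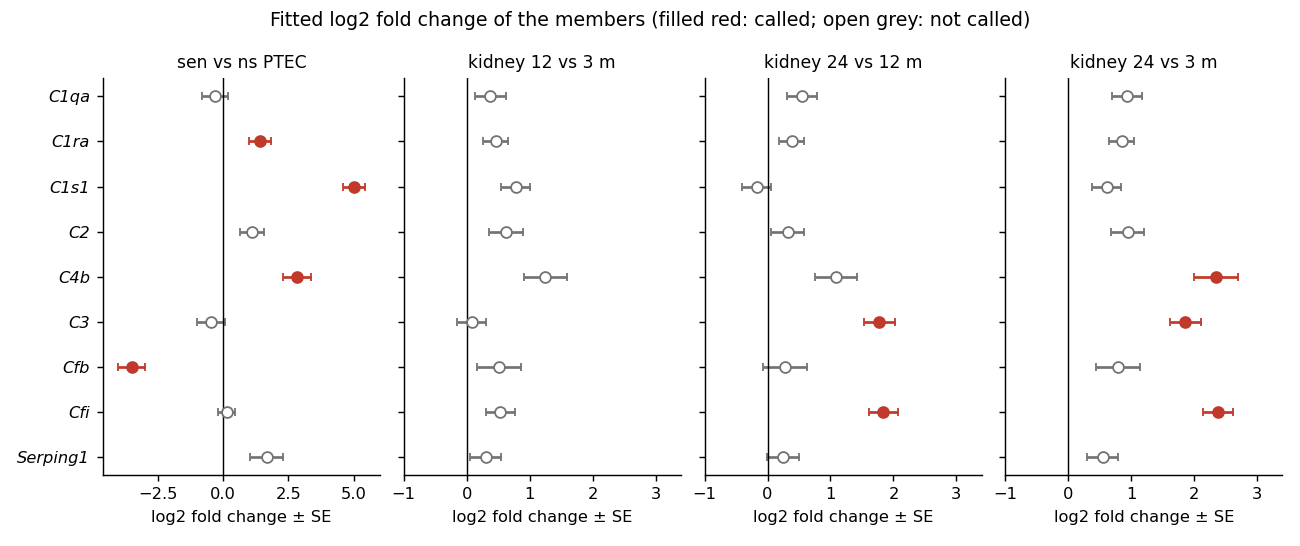
Fitted log2 fold change ± SE of each member in the 4 comparisons (filled red for called, open grey for not called). The called members of PTEC are C1ra, C1s1, C4b and Cfb, and those of kidneys are C4b, C3 and Cfi.

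Markers of leukocytes and of the proximal tubule also moved with age. The summed level of macrophage markers was 130 to 202 CPM at 3 months, 205 to 240 CPM at 12 months and 217 to 288 CPM at 24 months, with 1 of 11 tested up-regulated between 24 and 3 months, where 1.89% of all genes were called up and 0.451% down. Of B and plasma cell markers 3 of 7 were up-regulated (2.84 to 8.25 CPM at 3 months and 20.3 to 132 CPM at 24 months), of T and NK cell markers 2 of 6 (2.9 to 3.82 and 5.61 to 8.25 CPM), and of pan-leukocyte markers 1 of 6 (38 to 51.4 and 74.3 to 105 CPM). Of the hepatocyte markers, several of which the proximal tubule can express, 1 of 5 tested was up-regulated (291 to 495 and 479 to 708 CPM). Of the proximal tubule markers 3 of 12 were up-regulated and 0 down-regulated between 24 and 3 months. Positive log2 fold changes were found in 9 of 12 (median 0.455), and in 8 of 12 between 24 and 12 months, with Kap lowest in both comparisons. A sum weighs abundant genes most, and that of these markers was lower at 24 months than at both other ages, without overlap. Their sum was 59599 to 60569 CPM at 3 months, 62985 to 67139 CPM at 12 months and 50970 to 56776 CPM at 24 months. The part of these cells in the rise of the members was not tested. Fibroblast and pericyte markers were 157 to 182 CPM at 3 months, 191 to 212 CPM at 12 months and 241 to 290 CPM at 24 months. These ages did not overlap, with 0 of 9 called in any age comparison. Endothelial markers summed to 219 to 287 CPM at 3 months, 347 to 365 CPM at 12 months and 210 to 338 CPM at 24 months, and the 12-month-old kidneys were above both other ages without overlap, with 0 of 7 called in any age comparison. Their part in the members' values was not tested.

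The effects of senescence in PTEC and of age in kidneys (24 against 3 months) were set against each other in a fit of all 17 libraries, which tests their difference over 17999 genes. Its SE and adjusted p-values rest on a spread shared by PTEC and kidneys, which the other tests modelled separately because they differ so much. The difference passed an adjusted p of 0.05 in 4 members, C1s1, Cfb, C3 and Cfi, and in 23.8% of all genes. C1s1 rose more in sen PTEC than with age (difference of log2 fold changes 4.37, SE 0.479, adjusted p = 6.2e-06). For Cfb, Cfi and C3 the effect in PTEC was the lower one, with differences of -4.30 (SE 0.652, adjusted p = 0.000175), -2.25 (SE 0.428, adjusted p = 0.00116) and -2.34 (SE 0.691, adjusted p = 0.0214). The C3 difference was lost without 3-month replicate 1 (-2.20, adjusted p = 0.0551). C4b, the member called in both comparisons, had a difference of 0.48 (SE 0.619, adjusted p = 0.62), which does not show that the effects were alike. The other 4 members did not pass, with differences from -1.25 for C1qa to 1.09 for Serping1 (adjusted p from 0.142 to 0.899). Without sen replicate 2 that of C1qa passed (-1.82, adjusted p = 0.0167), and without ns replicate 2 that of Serping1 (1.85, adjusted p = 0.0457). This fit has no pairing. With the PTEC numbers as a block, added after seeing the data, C1qa passed too (-1.38, adjusted p = 0.0138), Serping1 had 1.24 (adjusted p = 0.0739) and C2 0.42 (adjusted p = 0.544), and 26.7% of all genes passed. Cell culture and organ differ in more than the treatment, and the differences describe these libraries.

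Levels in PTEC and kidneys lay far apart for some members. Cfb was 37.2 times and Serping1, against sen PTEC, 14.2 times higher in kidneys of 3 months than in the nearest PTEC group. C3 was higher in PTEC than in kidneys of 3 and 12 months, without overlap. C1s1 in sen PTEC (14.9 ± 4.38 CPM, n = 4) lay between kidneys of 3 months (12.1 ± 1.58 CPM) and of 24 months (18.5 ± 4.65 CPM) and overlapped with both, while kidneys of 3 months were 26.1 times above ns PTEC. C2 in sen PTEC overlapped with kidneys of 3 months, and Cfi overlapped between ns PTEC, sen PTEC and kidneys of 3 months, with means of 4.29, 4.64 and 4.75 CPM.

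Of 53 further genes of the complement pathway, chosen by role, 26 were tested in PTEC, and 9 were up-regulated and 4 down-regulated (20.1% and 19.7% over all genes). Membrane regulators, which protect host cells, had 4 of 7 up-regulated and 0 down-regulated. Cd55, which dissociates the convertases, rose from 2.58 to 4.57 CPM in ns PTEC to 17.2 to 22.9 CPM in sen PTEC (log2 fold change 2.53, SE 0.199, adjusted p = 1.67e-05). Cd59a and Cd59b, which block the membrane attack complex, rose by 1.29 (SE 0.179, adjusted p = 0.00044) and 1.42 (SE 0.28, adjusted p = 0.00294), and Csmd1 rose by 6.33 from at most 0.0741 CPM (0 to 3 counts) to between 1.72 and 5.21 CPM (SE 0.681, adjusted p = 0.000103). Cr1l was the lowest of this role with 0.01. The soluble regulators C4bp (3.46, SE 0.523), a cofactor of factor I, and Clu (1.07, SE 0.248), which binds the terminal complex, rose, and Cpn1, a subunit of the carboxypeptidase that inactivates anaphylatoxins, fell by 2.08 (SE 0.195, adjusted p = 4.78e-05). The lectin pathway genes Fcna, a ficolin (3.49, SE 0.732), and Colec12, a collectin (1.67, SE 0.378), rose. Masp1 had 0.97 and was not called, but 1 of 8 fits that leave out a culture called it (adjusted p = 0.00767). It had 3.88, 3.59, 8.41 and 15.1 CPM in ns PTEC and 17.1, 14.4, 11 and 17.1 CPM in sen PTEC, higher in every pair. Among receptors 0 of 6 had a positive value: C3ar1, the C3a receptor, fell by 1.88 (adjusted p = 0.0443), Itgb2, the β chain of complement receptor integrins, by 1.25 (adjusted p = 0.0246) and C1qbp by 0.997 (adjusted p = 0.00407), and Itgam had -0.14. C3ar1 and Itgb2 each kept their call in only 3 of 8 fits that leave out a culture (edgeR, highest adjusted p = 0.137 and 0.0723). C3ar1 or Itgb2, or both, lost their call without ns replicate 1, 2 or 4 or without sen replicate 1, 3 or 4. This left 2 or 3 down-regulated genes, in fits that called 15.1% to 20.4% of all genes down. Leukocytes express C3ar1, Itgb2 and Itgam, and of 5 pan-leukocyte markers tested 2 were down-regulated and 0 up-regulated (sums of 7.66 to 18.9 CPM in ns PTEC and 5.28 to 18.5 CPM in sen PTEC). Their part in the receptor values was not tested. In classical initiation (C1qb -0.19 to C1rl 0.76, 3 tested), in C4a and the alternative pathway (Cfp -0.22 to C4a 0.27, 2 tested) and in the terminal complex (C8g 0.45, the only gene tested) 0 were called.

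**Figure D4:**
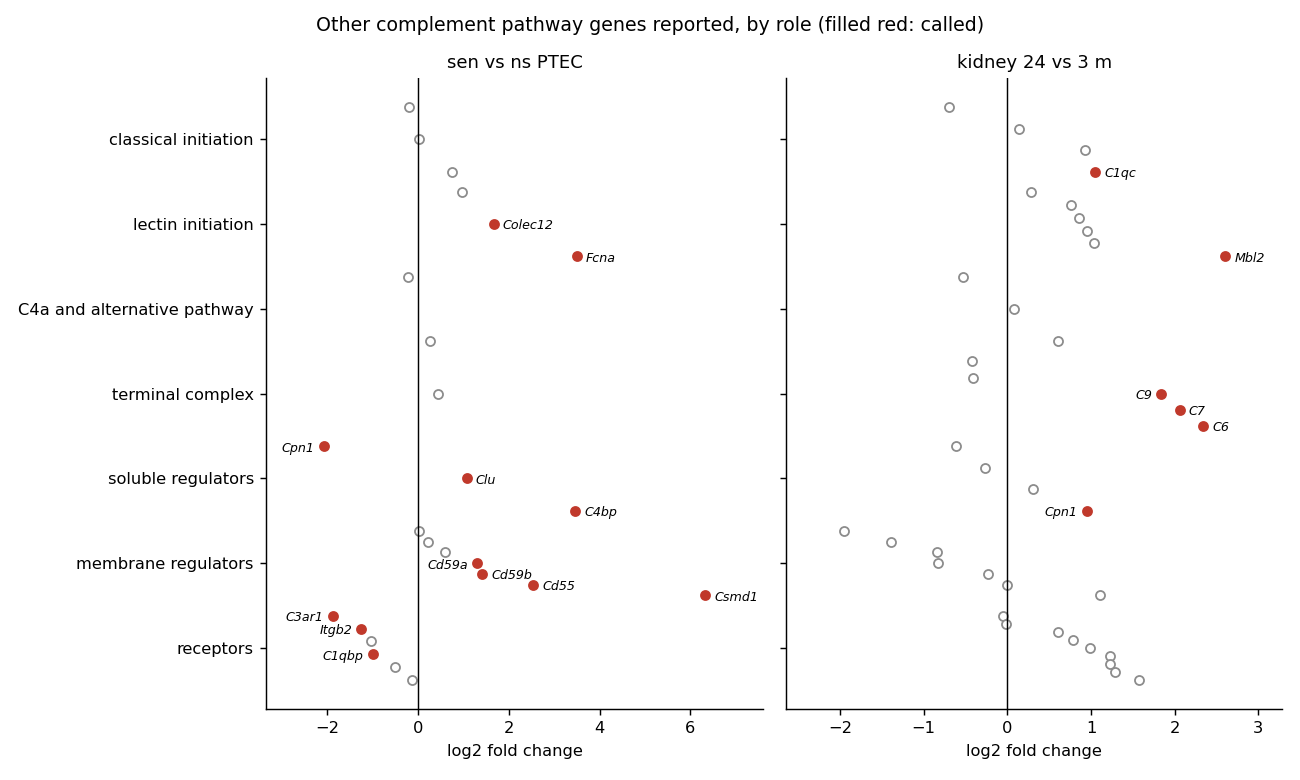
Fitted log2 fold change of tested further complement pathway genes reported here, by role, in sen against ns PTEC and in kidneys of 24 against 3 months (filled red and named for called, open grey for not called). The membrane and soluble regulators lie mostly to the right and the receptors to the left in PTEC, and the called genes of kidneys are C1qc, Mbl2, C9, C7, C6 and Cpn1.

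In kidneys of 24 against 3 months 39 of the 53 genes were tested, with 6 up-regulated and 0 down-regulated (1.89% and 0.451% over all genes). The number of up-regulated genes moved with the share of all genes called up, given in brackets. It was 0 without 3-month replicate 1 (0.298%) and 7 without 3-month replicate 2 (2.62%). It was 2 without 24-month replicate 1 (0.716%) or 2 (0.907%) and 3 without 24-month replicate 3 (0.767%). DESeq2 gave 13 (2.42%). Of the 6 fits that leave out a kidney, Cpn1 kept its call in 5 and C7 in 4, among them all fits without a 24-month-old kidney. C6 and Mbl2 kept theirs in 2 of 6, and C1qc and C9 in 1 of 6. In the terminal complex, C6, C7 and C9, which assemble the membrane attack complex, were up-regulated, while C8g and C8a had -0.42 and -0.41. C7 had 3.61, 4.4 and 4.49 CPM at 3 months and 27.8, 12.4 and 11.8 CPM at 24 months (2.06, SE 0.329, adjusted p = 0.017). C6 and C9 stayed at most 1.27 and 1.16 CPM (2.34, adjusted p = 0.0255, and 1.84, adjusted p = 0.0486). Mbl2, a mannose-binding lectin, rose by 2.60 (SE 0.4, adjusted p = 0.0144) from at most 0.129 CPM to between 0.414 and 0.698 CPM, and Mbl1 had 0.28. C1qc was up-regulated by 1.05 (SE 0.211, adjusted p = 0.0395), and C1s2 was lowest of its role with -0.70. Cpn1, which fell in sen PTEC, rose from 71.3 to 78.2 CPM at 3 months to 135 to 150 CPM at 24 months (0.95, SE 0.13, adjusted p = 0.00955), and Vtn had -0.62. Among membrane regulators 0 of 7 were called, from Cd46 with -1.96 (adjusted p = 0.332) to Csmd1 with 1.10 (adjusted p = 0.174), and among receptors 0 of 9, from Cr2 with -0.05 to C5ar1 with 1.57. Of C4a, Cfp and Cfd 0 were called (C4a 0.61, Cfd -0.53, the latter 0.96 without 3-month replicate 3). Cfd, factor D, varied from 0.472 to 116 CPM between kidneys, and was high in the kidneys with high summed adipocyte markers at 3 and at 24 months (replicate 3 of each, with 37.2 and 46.3 CPM of these markers). Between 12 and 3 months Colec11, a collectin, was the 1 gene up-regulated (1.84, SE 0.321, adjusted p = 0.0282). It lost its call without any one of these kidneys other than 3-month replicate 2. Between 24 and 12 months it was Mbl2 (2.16, SE 0.369, adjusted p = 0.033), which lost its call without any one of the 6 kidneys (adjusted p from 0.0567 to 0.145).

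For each member, the genes whose profile was most like its own were sought among 11974 genes outside the complement lists, as the root mean square difference of log2 CPM over the 17 libraries, centred within PTEC and within kidneys. C1qa was nearest to Ncf1 (0.231) and Ctss (0.28), both abundant in phagocytes. C1ra was nearest to H2-DMa (0.244) and H2-DMb1 (0.256), which load MHC class II. C2 was nearest to Cyp27a1 (0.245) and Plcxd1 (0.26), and Cfb to Xylb (0.23) and Cdhr5 (0.294). For comparison, the members' own root mean square variation ran from 0.62 for C1qa to 1.78 for C1s1, so that distances are not comparable between members. Cfi had Npl (0.42) and Vcam1 (0.434), C3 had Aoc1 (0.553) and Npl (0.591), C4b had P2ry6 (0.565) and Npr2 (0.594), C1s1 had Trim30d (0.401) and Npr3 (0.428), and Serping1 had Gda (0.411) and P2rx7 (0.433). Npl was thus named for both Cfi and C3. These are descriptions over libraries that share culture or organ and age.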

How the data were processed

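RNA of 8 PTEC cultures and 9 kidneys was sequenced by the authors from stranded poly(A) libraries and processed with nf-core/rnaseq, and raw counts per gene were deposited without normalization. Which aligner and counter were used, and with which strand option, is not given in the sources used here. The deposited counts were used as they stand. Identifiers were matched without their version, and symbols, positions and exon lengths came from GENCODE release M21 of GRCm38. The submitters' processing notes name the same build, but the paper's supplement names an earlier GENCODE release. For all 9 members the identifier version was the same in every count table and in release M21.

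Tests used edgeR 4.0.16 (on limma 3.58.1) and DESeq2 1.42.0 under R 4.3.3. Tables and plots used pandas 2.3.3, numpy 2.4.6 and matplotlib 3.10.9 under Python 3.11.15. The 8 PTEC and 9 kidney libraries were modelled separately with TMM scaling, filterByExpr and edgeR's robust quasi-likelihood test, with Benjamini-Hochberg adjustment over all genes tested. Where DESeq2 is not named, an adjusted p-value is edgeR's. The members and gene lists were chosen with earlier results of these data known. Named genes are the 9 members, the further pathway genes called in a comparison, the extremes of each role in sen against ns PTEC and in 24 against 3 months, and the 2 most like genes of each member (mean of at least 1 CPM in PTEC and in kidneys, prior count 2). A pathway gene that the counts include is not reported here by name. Others named beside them were chosen after their values were seen.

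Same-numbered PTEC cultures deviated together from their group means (r over genes of 0.284, 0.383, 0.613 and 0.186), so the numbers, which come from the labels, were taken to pair the cultures. Between 12- and 24-month-old kidneys r was 0.385, 0.558 and 0.174, although these are different mice and replicate 3 correlated better with another number. Such correlations therefore do not establish that the cultures were paired. Counts of every pair of replicates differed beyond sampling noise. The method was tested on simulated data, and the outcome is not reported here. Alternatives were other scalings and thresholds, no filter, DESeq2, a replicate block, fits of the compared ages alone and each library left out in turn.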

Additional observations from a re-analysis of the deposited data

Results flagged for a closer look

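Of 66 combinations of a named gene and a PTEC group, 4 had a value that stood apart from the other 3 cultures by Dixon's criterion. Chance alone meets it in about 1 of 20 groups, so this number is close to what chance gives. Cfi had 7.12 CPM in ns PTEC replicate 4, against 3.11 to 3.74 CPM in the other ns cultures. C1qc had 8.03 CPM in ns PTEC replicate 2, against 3.61 to 4.3 CPM, and the same culture was highest for C1qa and for the macrophage markers. Cd46, a membrane cofactor of factor I, had 1.52 CPM in ns PTEC replicate 4, against 0.371 to 0.56 CPM. Itgb2 had 4.42 CPM in sen PTEC replicate 2, against 1.43 to 1.66 CPM. Groups of 3 kidneys were not screened by this criterion.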

How the results depend on the processing

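Other scalings, no filter on low counts and other fold change thresholds left the members' counts of calls within 1.5 times of the reported ones. In PTEC, the replicate block gave 5 up-regulated members, where 23.2% of all genes were called up. DESeq2 gave 6 up-regulated members at 24 against 3 months and 1 at 12 against 3 months, and for the further pathway genes 13 up and 1 down at 24 against 3 months, 3 up and 1 down at 12 against 3 months and 4 up at 24 against 12 months. DESeq2 called 2.42%, 1.77% and 1.64% of all genes up in these comparisons. A replicate block in the fit of all kidneys gave 0 up-regulated further pathway genes in each of the 3 age comparisons. With it, 0.598%, 0.305% and 0% of all genes were called up at 24 against 3, 12 against 3 and 24 against 12 months. It gave 0 up-regulated members at 24 against 12 months, and C4b lost its call at 24 against 3 months (2.30, adjusted p = 0.0645). Same-numbered kidneys of 3 months did not deviate with those of 24 months (r from -0.420 to -0.033) or 12 months (-0.702 to -0.051), so there the block is no pairing. Fits of the compared ages alone gave 3 up-regulated further genes at 24 against 3 months (1.26% of all genes) and 0 at 12 against 3 months (0.234%). With the block added to the fit of 12- and 24-month-old kidneys alone, chosen after seeing the data, 4 members and 6 further genes were up-regulated and 4 further genes down-regulated, in a fit that called 7.77% of all genes up and 5.41% down. With the PTEC replicate numbers as a block, 5 members differed between the effects in place of 4, and 26.7% of all genes in place of 23.8%. The difference of effects of C3 was lost without the filter on low counts (-2.37, adjusted p = 0.0768). The cause of these changes was not tested.

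With each library left out in turn, the down-regulated further genes in PTEC numbered 2 to 4 (15.1% to 20.4% of all genes). At 24 against 3 months the up-regulated further genes numbered 0 to 7 and the down-regulated ones 0 to 1. Over all genes, these fits called 0.298% to 2.62% up and 0.126% to 1.9% down. At 12 against 3 months both numbered 0 to 1, with 0.177% to 1.42% of all genes called up and 0.12% to 2.66% down. At 24 against 12 months the up-regulated members and the up-regulated further genes each numbered 0 to 1 (0% to 0.315% of all genes). Log2 fold changes that were not called changed sign in these fits: in PTEC C1qa ranged from -0.88 to 0.065, Cfi from -0.080 to 0.50, C1qc from -0.55 to 0.36, C1qb from -0.80 to 0.16, Cr1l from -0.028 to 0.078 and Itgam from -0.60 to 0.30. In kidneys the range was -4.61 to 0.96 for Cfd and -0.30 to 0.12 for Cr2 at 24 against 3 months, -0.092 to 0.22 for C3 at 12 against 3 months and -0.29 to 0.022 for C1s1 at 24 against 12 months. The difference of effects of C2 ranged from -0.20 to 0.64. Depth limits C4b in ns PTEC (2 to 18 counts) and Cfb in sen PTEC (3 to 5 counts), and 3 or 4 libraries per group limit every test.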
